A study of Mus musculus with 3 samples.

Results

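The dual-specificity MAP kinase phosphatases were examined as 9 genes, Dusp1, Dusp2, Dusp4, Dusp5, Dusp6, Dusp7, Dusp8, Dusp10 and Dusp16, of the 21887 protein-coding genes in the RefSeq table of GRCm38. Their members were the peaks that touched the body of a gene or lay within 20 kb of it, 44 of 31165 ETV5 peaks and 14 of 15134 peaks of histone H3 trimethylated at lysine 4 (H3K4me3). Alveolar type II (AT2) cells, the surfactant-making cells of the lung alveolus, came from C57BL/6 mice aged 10 to 12 weeks. No genotype or treatment is named for them, and how many mice were pooled is not stated in these sources. Chromatin was fixed in 1% formaldehyde and precipitated with an antibody against ETV5 or against H3K4me3, a mark of active promoters. There was 1 library per antibody, and 1 input sample is listed. No value has a replicate check and no test across libraries was possible, so every comparison between genes is a description. Intervals are 95% intervals (exact Poisson for fragments, Clopper-Pearson for shares) and cover counting error only.

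These phosphatases remove phosphate from both threonine and tyrosine in the activation loop of MAP kinases and so switch them off. Many of their genes are themselves induced by the kinases they silence, which makes them a standard example of negative feedback. Dusp1, Dusp2, Dusp4 and Dusp5 encode nuclear and inducible enzymes, Dusp6 and Dusp7 encode cytoplasmic enzymes that prefer ERK, and Dusp8, Dusp10 and Dusp16 encode enzymes that prefer JNK and p38. ETV5 belongs to the PEA3 group of ETS transcription factors, which act downstream of FGF and ERK signalling.

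The ETV5 list rests on 5715049 tags and the H3K4me3 list on 34907608, so ETV5 and H3K4me3 folds cannot be set against each other. They were also called against different input data, of 27495486 tags for ETV5 and 44758677 for H3K4me3. H3K4me3 lay over the body of 10 of 10 AT2 marker genes, 4 of 5 AT1, 4 of 5 ciliated, 1 of 5 endothelial, 0 of 5 leukocyte and 0 of 5 mesenchymal markers. Within 20 kb it lay near 1 of 5 endothelial markers (Tek), 1 of 5 leukocyte markers (Cd68, with 4 peaks) and 0 of 5 mesenchymal markers.

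Every phosphatase gene had both kinds of peak. All 9 had an ETV5 peak within 20 kb, where 68.6% of protein-coding genes did, and all 9 had H3K4me3 within 20 kb, where 66% did. H3K4me3 lay over the gene body itself in 9 of 9, against 56.5% of protein-coding genes. An ETV5 peak with a fold enrichment of at least 10 (pileup over local input background, 1 added to each) lay near 9 of 9, against 51.5%. The number of ETV5 peaks ran from 1 at Dusp10 to 9 at Dusp16, with 8 each at Dusp1 and Dusp7, 5 at Dusp8, 4 at Dusp4 and 3 each at Dusp2, Dusp5 and Dusp6. Thus 8 of 9 had 3 or more, against 37.1% of protein-coding genes. The windows differed in length, from 42219 bp at Dusp2 to 131596 bp at Dusp16. Per 10 kb of window the median was 0.71 ETV5 peaks (0.12 at Dusp10 to 1.87 at Dusp1), against 0.39 over the 14439 protein-coding genes with H3K4me3 in their window.

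**Figure D1:**
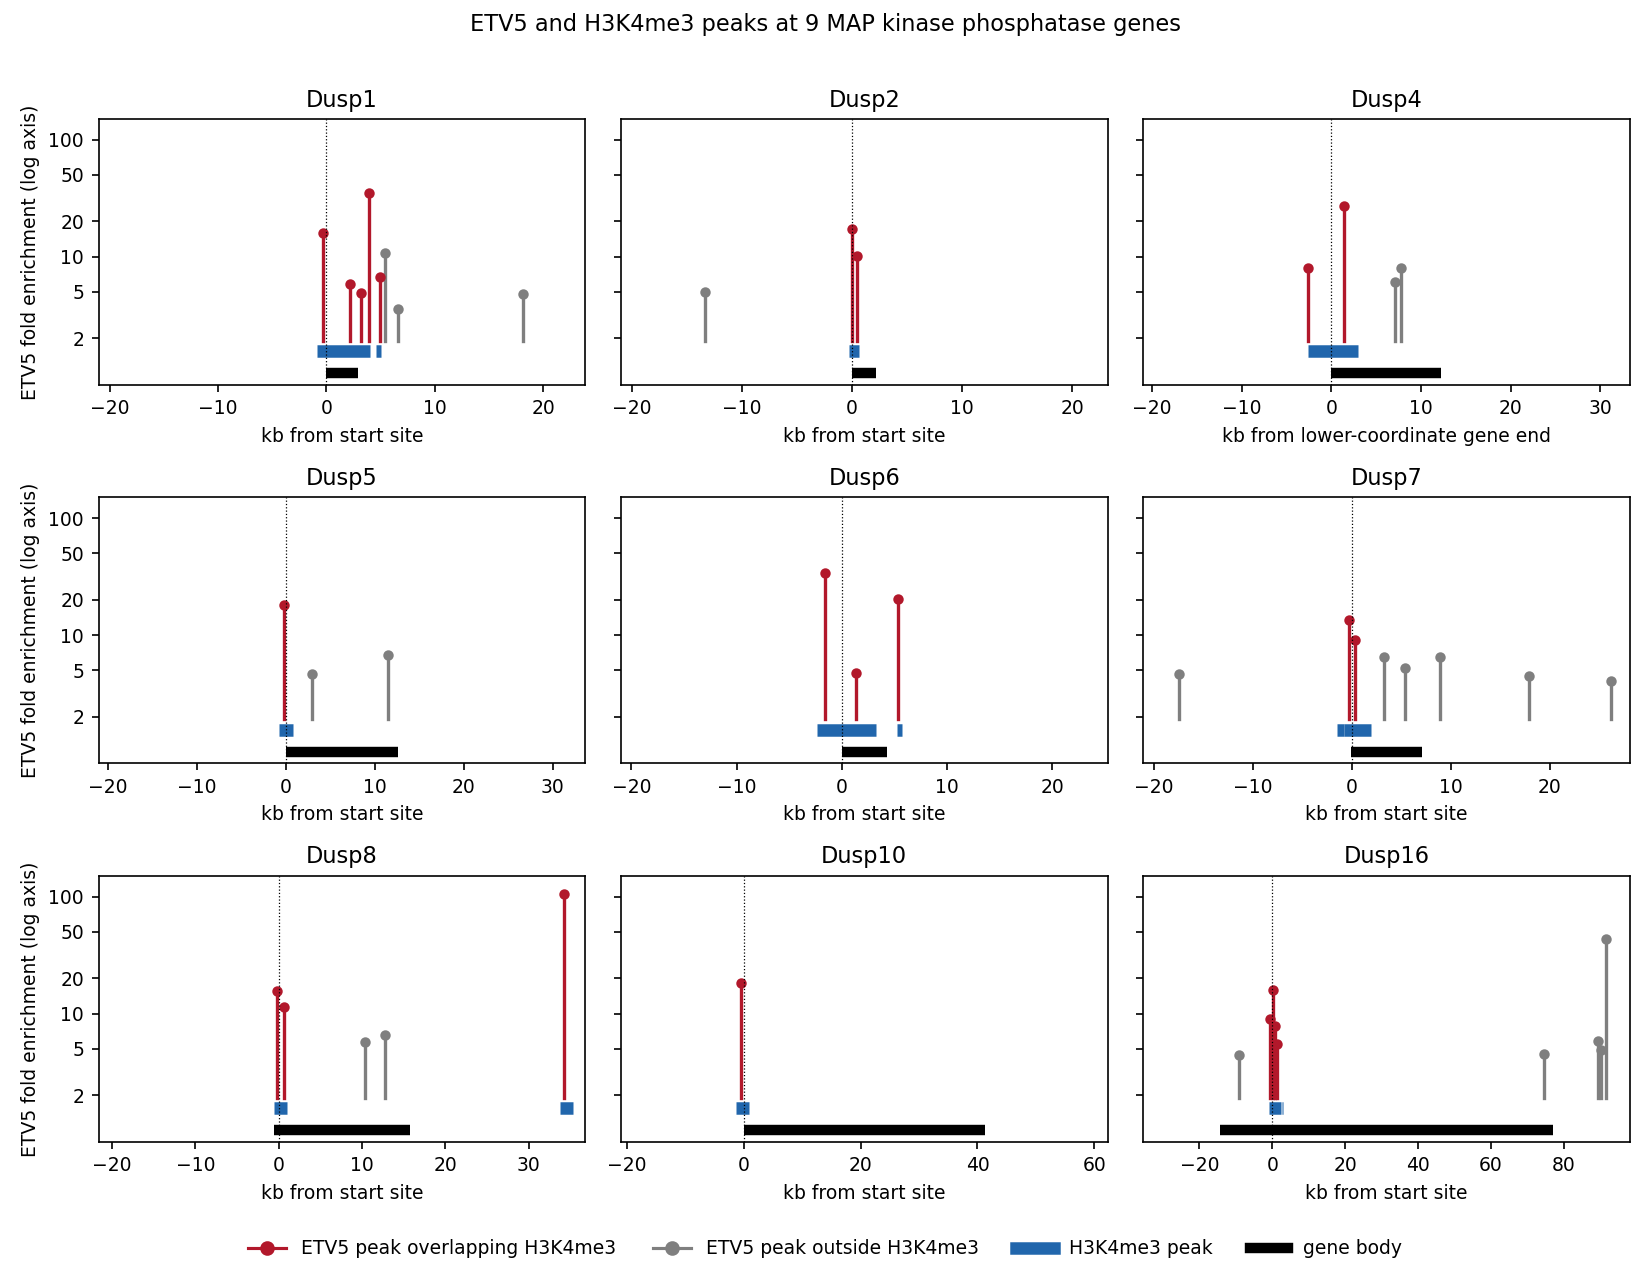
Peaks at each gene by distance from its RefSeq start site in kb, with transcription running to the right. Dusp4 is drawn by rising coordinate from its lower-coordinate end. Stems give the fold enrichment of each ETV5 peak (log axis), red where it overlaps H3K4me3 and grey where it does not, blue bars are H3K4me3 peaks and black bars gene bodies. The tall stem at the right of Dusp8 (fold 105) is at the start of the neighbouring gene Mob2, and that at the right of Dusp16 (fold 43.2) lies inside the neighbouring gene Borcs5.

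Taken peak by peak, the ETV5 signal at these genes was close to that of the whole list. Of the 44 peaks, 23 (52.3%, interval 36.7 to 67.5) overlapped H3K4me3, against 48.9% of all ETV5 peaks. Of them, 16 (36.4%, 22.4 to 52.2) had a fold of 10 or more, against 30.7%. The median fold was 6.67 (lowest 3.55, highest 105), and it was 6.60 over all 31156 ETV5 peaks on assembled chromosomes. Inside H3K4me3 the median fold was 13.3 over 23 peaks, with 14 of them at 10 or more (60.9% against 55% of all such peaks). Outside H3K4me3 it was 5.20 over 21 peaks, with 2 of them at 10 or more (9.52% against 7.48%). These exceptions were a peak beside Dusp1 and the peak inside Borcs5. Of the 14 H3K4me3 peaks, 13 held an ETV5 peak (92.9%, 66.1 to 99.8), against 84.2% of all H3K4me3 peaks. The exception was a 288-bp peak of fold 2.62 in Dusp16. In 8 of 9 windows the highest-fold ETV5 peak overlapped H3K4me3, against 86.2% for the 15025 genes with an ETV5 peak. At Dusp8 that peak was the one at Mob2, and at Dusp10 it was nearest to 1700056E22Rik.

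Dusp1 encodes the immediate early phosphatase that acts on ERK, JNK and p38. It occupies chr17:26505591-26508472 on the minus strand. Its strongest ETV5 peak was beyond the 3′ end of the gene, not at the start site. That peak (chr17:26503876-26504842) had a fold of 35.0 and a pileup of 85 fragments (67.9 to 105), with its summit 1095 bp downstream of the gene and 3976 bp from the start site. It overlapped the end of a 4907-bp H3K4me3 peak (fold 46.0, pileup 332) that ran over the whole gene, with 45.3% of its width inside that peak. The peak over the start site was weaker, at fold 16.0 and 35 fragments (24.4 to 48.7), with its summit 323 bp upstream. Further along the gene and its 3′ side lay peaks of fold 5.79, 4.90, 6.64 and 10.8, the last of them 141 bp outside H3K4me3. The peak of fold 6.64 overlapped a separate H3K4me3 peak of 451 bp and fold 6.95. Thus 6 of the 8 ETV5 peaks had their summit downstream of the gene, at 295 to 15253 bp from its end.

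The 250 bases before the start site of Dusp1 (chr17:26508473-26508722, minus strand) are shown because the upstream ETV5 peak covers them and they hold a full cAMP response element. Capitals mark the element TGACGTCA and the shorter core TGACG, on either strand.
Dusp1: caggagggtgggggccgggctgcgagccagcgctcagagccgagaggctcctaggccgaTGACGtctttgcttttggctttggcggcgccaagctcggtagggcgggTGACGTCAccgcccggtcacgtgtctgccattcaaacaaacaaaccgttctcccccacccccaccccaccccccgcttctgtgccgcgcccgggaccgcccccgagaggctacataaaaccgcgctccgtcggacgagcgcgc

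Dusp2 encodes a nuclear phosphatase known from lymphocytes, and the widest H3K4me3 peak over its body was the lowest in fold among the widest peaks of the 9 genes. At chr2:127336159-127338377 on the plus strand, its H3K4me3 peak was 886 bp wide with a fold of 8.84 and a pileup of 63, wider than 15.2% of the widest peaks over H3K4me3-marked genes. ETV5 gave 2 separate peaks within it, of fold 17.1 with 29 fragments (19.4 to 41.6) and of fold 10.1 with 19 fragments (11.4 to 29.7). Their summits lay 30 and 461 bp downstream of the start site, and together they covered 79.2% of the H3K4me3 peak. A further peak of fold 4.995 lay 13325 bp upstream.

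Dusp4 encodes a nuclear phosphatase of ERK and JNK and had the widest H3K4me3 peak of the family (gene body chr8:34807610-34819894). The H3K4me3 peak (chr8:34804981-34810618) was 5638 bp wide, wider than 99.6% of the widest peaks over H3K4me3-marked genes, with a fold of 45.2. ETV5 covered 88.7% of it with 2 peaks. The stronger was 3976 bp wide, with a fold of 27.0 and 50 fragments (37.1 to 65.9), and its summit lay 1425 bp inside the gene. The other had 27 fragments (17.8 to 39.3) and a fold of 8.01, held down by a local background of 2.49 fragments, the highest at any of the 44 peaks, where the median was 0.95. Peaks of fold 6.11 and 8.02 lay deeper in the gene, outside H3K4me3. The next ETV5 peak beyond the window was 144670 bp from the gene.

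Dusp5 encodes a nuclear phosphatase specific for ERK (chr19:53529145-53541809, plus strand). A single ETV5 peak of fold 18.2 and 40 fragments (28.6 to 54.5) spanned the start site, with its summit 199 bp upstream. It covered 83.4% of a 1539-bp H3K4me3 peak of fold 25.6. Peaks of fold 4.66 and 6.70 inside the gene lay outside H3K4me3.

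The 250 bases before the start of Dusp5 (chr19:53528895-53529144, plus strand) are shown because the ETV5 summit lies among them, at base 52 of the line. Capitals mark 2 adjacent CArG boxes, the element bound by serum response factor. They begin 82 and 72 bases before the start, at bases 169 and 179 of the line, and so not at the ETV5 summit. Nearer to the summit, at base 60, begins an ETS core (TTCC, which is GGAA on the other strand), not put in capitals. Such a core was in 96% of all promoter windows. The CArG box was added to the motif search after the sequences had been seen.
Dusp5: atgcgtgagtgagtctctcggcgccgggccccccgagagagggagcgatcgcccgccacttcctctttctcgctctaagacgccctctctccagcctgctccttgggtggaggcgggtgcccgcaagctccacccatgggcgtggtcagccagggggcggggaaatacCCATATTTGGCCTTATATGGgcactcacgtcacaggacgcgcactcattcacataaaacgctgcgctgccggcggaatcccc

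Dusp6 encodes the cytoplasmic ERK phosphatase best known as a feedback inhibitor of FGF signalling. It had the H3K4me3 peak of highest fold of the 9 genes and, with Dusp1, the highest ETV5 fold within such a peak. Its body is at chr10:99263231-99267489 on the plus strand. The main ETV5 peak (chr10:99261180-99264172) was 2993 bp wide with a fold of 34.2 and 90 fragments (72.4 to 111). That fold was higher than 95.6% of all single ETV5 peaks. It was higher than 82.2% of the highest folds of protein-coding genes with ETV5 within 20 kb. The peak ran across the start site, and its summit lay 1579 bp upstream. The H3K4me3 peak beneath was 5580 bp wide with a fold of 52.5 and a pileup of 334, and its own summit lay 892 bp inside the gene, 2471 bp from the ETV5 summit. A second strong ETV5 peak of fold 20.2 and 32 fragments (21.9 to 45.2) lay beyond the 3′ end of the gene, 1097 bp from it. That site carried a separate H3K4me3 peak of 468 bp and fold 6.90, of which the ETV5 peak covered 98.3%. A weak ETV5 peak of fold 4.77 lay in the gene. All 3 ETV5 peaks of Dusp6 overlapped H3K4me3. Dusp1 and Dusp6 each had a strong ETV5 peak beyond the 3′ end, at 1095 and 1097 bp, and each overlapped H3K4me3 in part. How many other genes have an ETV5 peak so placed was not counted.

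The 250 bases before the start of Dusp6 (chr10:99262981-99263230, plus strand) are shown because the main ETV5 peak covers them. Capitals mark each ETS core, GGAA on either strand, of which there were 6.
Dusp6: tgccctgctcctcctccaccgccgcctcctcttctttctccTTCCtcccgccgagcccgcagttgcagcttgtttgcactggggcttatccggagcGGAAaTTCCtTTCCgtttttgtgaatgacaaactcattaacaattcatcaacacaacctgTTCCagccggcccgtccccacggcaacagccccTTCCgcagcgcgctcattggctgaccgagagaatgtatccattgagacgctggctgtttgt

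Dusp7 encodes the cytoplasmic ERK phosphatase closest to Dusp6. Its ETV5 peaks were many but mostly weak, and its highest ETV5 fold was the lowest of the 9. That fold, 13.3, was higher than 78.4% of all single ETV5 peaks. It was higher than only 37.4% of the highest folds of protein-coding genes with ETV5 within 20 kb. The gene body lies at chr9:106368560-106375724 on the plus strand. ETV5 flanked the start site with 2 peaks, of fold 13.3 and 24 fragments (15.4 to 35.7) with the summit 247 bp upstream, and of fold 9.10 and 27 fragments (17.8 to 39.3) with the summit 381 bp downstream. By pileup the order is the reverse, and the intervals overlap. The second sits on a local background of 2.08 fragments, the first on 0.87. Both overlapped a 2686-bp H3K4me3 peak of fold 46.1, and the first also a 686-bp peak of fold 8.41 beside it. The start site itself lay in the gap between these ETV5 peaks. The other 6 ETV5 peaks had folds of 4.09 to 6.52 and lay outside H3K4me3. One of them, of fold 4.67, was 626 bp from the end of the neighbouring centriole gene Poc1a.

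Dusp8 encodes a phosphatase that prefers JNK and p38 (chr7:142079487-142095907, minus strand). At its start site ETV5 gave peaks of fold 15.7 with 26 fragments (17.0 to 38.1), 157 bp upstream, and of fold 11.4 with 19 fragments (11.4 to 29.7), 665 bp downstream. Both lay in a 1639-bp H3K4me3 peak of fold 41.7. The largest value of the window was not at Dusp8. It was a peak of fold 105 and 279 fragments (247 to 314; chr7:142060329-142061704), with its summit 5 bp from the start site of Mob2, a gene for a regulator of NDR kinases, and 18448 bp from the end of Dusp8. Only 2 weak peaks, of fold 5.74 and 6.60, lay between, in the body of Dusp8.

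The 250 bases before the start of Dusp8 (chr7:142095285-142095534, minus strand) are shown because the ETV5 summit lies at base 94 of the line and because they hold 2 full cAMP response elements. Capitals mark TGACGTCA and its core TGACG.
Dusp8: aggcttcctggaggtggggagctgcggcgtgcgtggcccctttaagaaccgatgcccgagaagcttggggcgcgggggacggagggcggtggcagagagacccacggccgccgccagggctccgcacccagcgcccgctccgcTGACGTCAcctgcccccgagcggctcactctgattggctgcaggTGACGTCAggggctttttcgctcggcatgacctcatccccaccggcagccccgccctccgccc

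Dusp10 encodes a phosphatase of JNK and p38 and had the fewest ETV5 peaks. The body runs along chr1:184034381-184075636 on the plus strand. Its only ETV5 peak (chr1:184033287-184034366) had a fold of 18.4 and 36 fragments (25.2 to 49.8). It lay inside a 2167-bp H3K4me3 peak of fold 39.2, and the ETV5 and H3K4me3 summits were 10 bp apart. The ETV5 peak ended 15 bp short of the start site. Its summit was 497 bp upstream of Dusp10 and 114 bp from the start of 1700056E22Rik, a gene on the opposite strand, so the peak cannot be given to either. Nothing else was called nearby, as the next ETV5 peak lay 200147 bp and the next H3K4me3 peak 644820 bp from the gene.

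Dusp16 encodes a JNK phosphatase and is the longest gene of the family (91596 bp, chr6:134715468-134807063, minus strand). The RefSeq start site used here lies 14435 bp inside the annotated gene, and ETV5 and H3K4me3 were at this start, not at the outer end. Under a 3358-bp H3K4me3 peak of fold 49.1 there were 4 ETV5 peaks, of fold 8.95, 16.0, 7.88 and 5.48 in the direction of transcription. The strongest had 25 fragments (16.2 to 36.9) and its summit lay 258 bp downstream of the start. The highest value in the window, fold 43.2 with 123 fragments (102 to 147; chr6:134700759-134701706), lay 14437 bp beyond the 3′ end of Dusp16 and inside Borcs5, a gene for a protein of lysosome positioning. It lay 58914 bp from the nearest H3K4me3 peak. With it were peaks of fold 4.91 and 5.79 in the same gene. The remaining peaks, of fold 4.41 and 4.49, lay in Dusp16 outside H3K4me3.

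Compared by the strongest ETV5 peak within the H3K4me3 peak over each gene, Dusp1 (fold 35.0) and Dusp6 (34.2) came first, then Dusp4 (27.0), Dusp10 (18.4), Dusp5 (18.2), Dusp2 (17.1), Dusp16 (16.0), Dusp8 (15.7) and Dusp7 (13.3). The pileup intervals of Dusp1 and Dusp6 overlapped each other and no other member's. From Dusp4 down to Dusp7, neighbours in this order had overlapping intervals. The Dusp10 peak is counted here although its summit is nearer to 1700056E22Rik and it cannot be given to either gene. The median over the 9 genes was 18.2, and it was 14.6 over the 11524 protein-coding genes with ETV5 in such a peak. By role, the genes for nuclear enzymes ranged from 17.1 to 35.0, those for cytoplasmic ones from 13.3 to 34.2 and the 3 for phosphatases of JNK and p38 from 15.7 to 18.4. Of the strongest Dusp1 peak only 45.3% lay inside H3K4me3. Counting only ETV5 peaks with at least 50% inside, a rule added after the values were seen, Dusp1 had fold 16.0, behind Dusp2, and the other 8 genes kept their values.

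**Figure D2:**
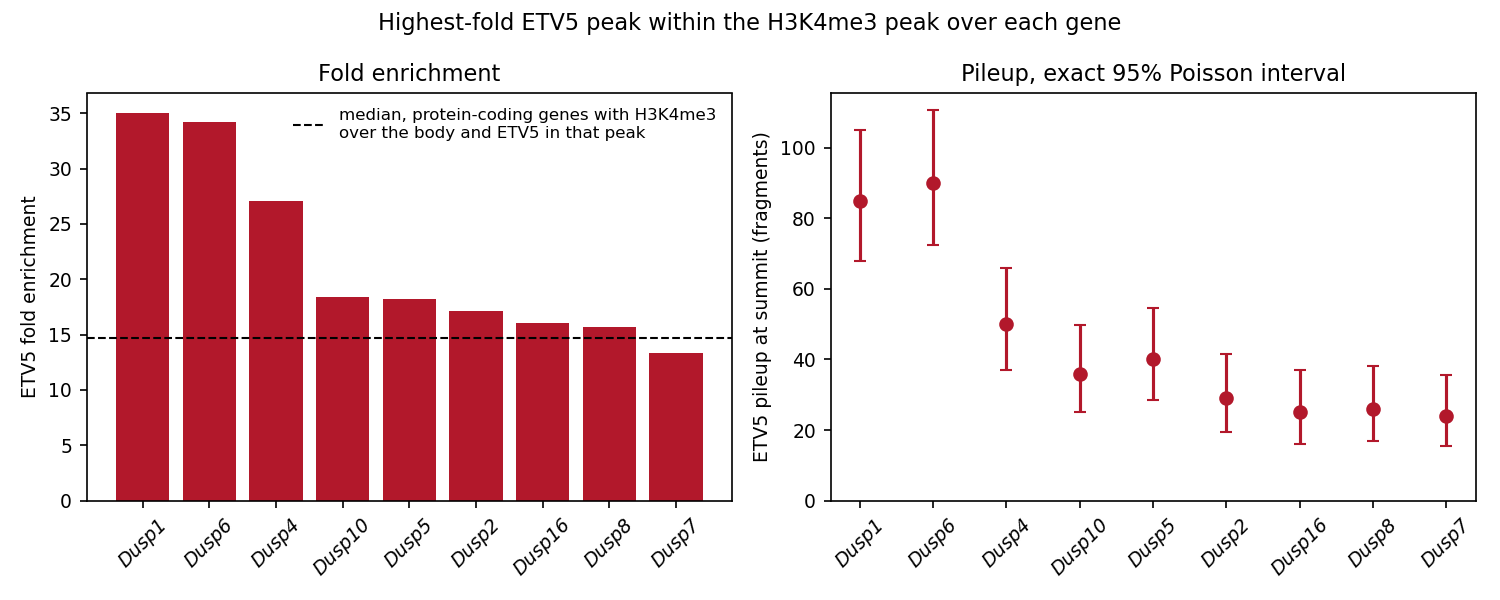
Highest-fold ETV5 peak within the H3K4me3 peak over each gene. Left, fold enrichment as bars, with a dashed line at the median of protein-coding genes with such a peak (14.6). Right, pileup at the summit in fragments with exact 95% Poisson intervals. Dusp1 and Dusp6, with 85 and 90 fragments, sit above the other 7 genes, which lie between 24 and 50. The summit of the Dusp10 peak is nearer to 1700056E22Rik.

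The width of H3K4me3 also set the genes apart. The widest peak over the body measured 5638 bp at Dusp4, 5580 at Dusp6, 4907 at Dusp1, 3358 at Dusp16, 2686 at Dusp7, 2167 at Dusp10, 1639 at Dusp8, 1539 at Dusp5 and 886 at Dusp2. The median was 2686 bp, and it was 1453 bp over the 12362 protein-coding genes with H3K4me3 over their body. A width of 3000 bp or more, a limit chosen with these values known, was reached by 4 of 9, against 5.55% of those genes. The 3 genes with the widest peaks were also the 3 with the highest ETV5 folds within that peak, which for Dusp1 does not hold when at least 50% of the ETV5 peak must lie inside. These are 9 genes of the same libraries, and this order is a description. The fold used is the highest among the ETV5 peaks in the H3K4me3 peak, and wider H3K4me3 peaks hold more of them in general. Neither this order nor the median fold of 18.2 against 14.6 was compared at like width.

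All 9 of these H3K4me3 peaks held ETV5, against 93.2% of H3K4me3-marked genes. In 7 of 9, all but Dusp5 and Dusp10, the peak held 2 or more ETV5 peaks, against 19.5%. Wide H3K4me3 peaks hold more ETV5 peaks in general. At 3000 bp or wider, 4 of 4 members and 60.5% of genes had 2 or more. From 1500 to under 3000 bp it was 2 of 4 and 27.5%, and under 1500 bp it was Dusp2, 1 of 1, and 8.94%. The share of the H3K4me3 peak covered by ETV5 ran from 44.6% at Dusp16 to 88.7% at Dusp4, with a median of 59.3% that lay close to the 57.4% of all marked genes.

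**Figure D3:**
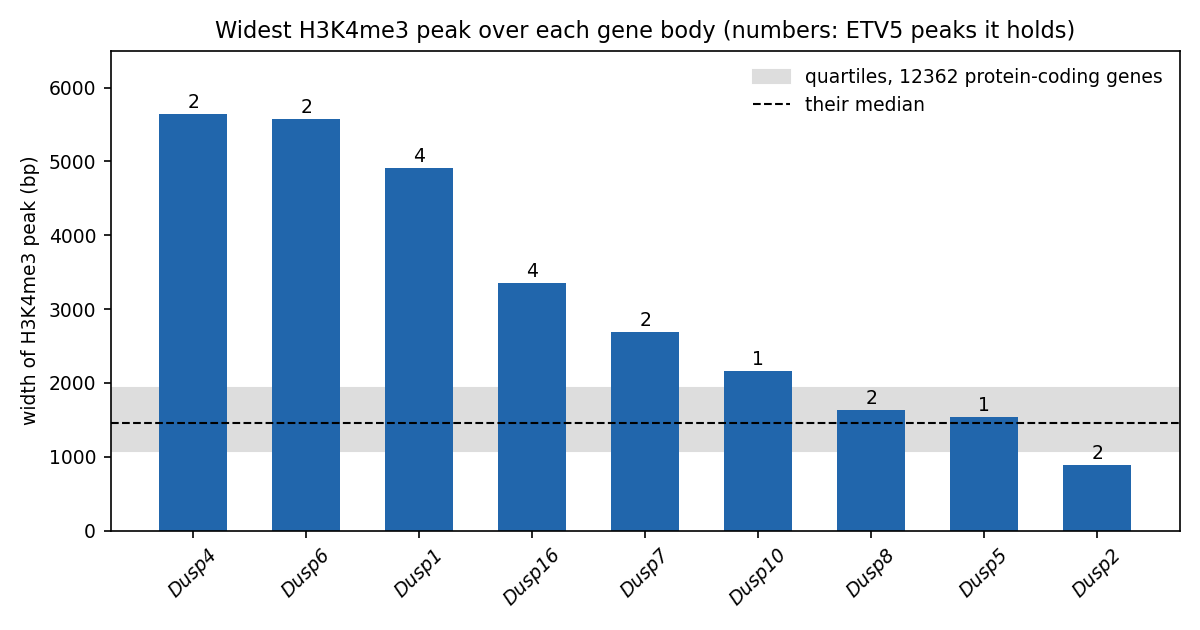
Width in bp of the widest H3K4me3 peak over each gene body, as bars, with the number of ETV5 peaks it holds printed above. The grey band gives the quartiles and the dashed line the median (1453 bp) of 12362 protein-coding genes. Dusp4, Dusp6, Dusp1, Dusp16, Dusp7 and Dusp10 rise above the band, Dusp8 and Dusp5 lie within it and Dusp2 lies below it.

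The promoters were also compared by sequence. RefSeq promoter windows of GRCm38.p6, 250 bases before to 50 after the start, matched 8 of the 9 genes, not Dusp4. All 8 start sites lay inside an H3K4me3 peak and 6 lay inside an ETV5 peak, the exceptions being Dusp7 and Dusp10. The same shares over all RefSeq start sites were not counted, so these counts are not set against other promoters. The ETS consensus CCGGAAGT, searched on both strands, occurred in 0 of the 8 windows. It occurred in 3.89% of all 32851 windows, in 15.2% of the 5541 that hold an ETV5 summit and in 1.59% of the others. Summits lay within the window in 4 members, Dusp2, Dusp5, Dusp7 and Dusp8. The short core GGAA, which CCGGAAGT contains, was in 6 of 8, not in Dusp7 or Dusp10, and in 96% of all windows. The full cAMP response element TGACGTCA was in 2 of 8, Dusp1 and Dusp8, and in 1.79% of all windows, or 4.39% of those with an ETV5 summit. Its core TGACG was in 5 of 8, in 20.8% of all and in 36.5% of those with a summit. The AP-1 element TGANTCA was in 0 of 8, in 7.81% of all and in 3.93% of those with a summit. A CArG box was in Dusp5 alone among the 8, in 1.63% of all and in 0.866% of those with a summit. That motif was added after the sequences had been seen, so its shares are no comparison with the members. These matches describe letters in these windows, which for Dusp1, Dusp6, Dusp10 and Dusp16 do not hold the ETV5 summit.

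Other genes of the MAP kinase route were set beside the phosphatases, from lists chosen with earlier results of these data known. Dusp9, the remaining cytoplasmic ERK phosphatase, on chromosome X, had ETV5 peaks of fold up to 7.35 and no H3K4me3 over its body. The list of atypical dual-specificity phosphatases held 15 genes, relatives without the MAP kinase docking domain. Of these, 15 had ETV5 within 20 kb and 10 had H3K4me3 over the body. Their highest folds were at Dusp19 (40.2, nearest to Nup35), Dusp28 (34.3) and Styx (33.9, nearest to Gnpnat1). Of 14 MAP kinases 13 had ETV5 and 12 had H3K4me3 over the body, led by the JNK gene Mapk9 (33.8), Mapk15 (26.6, nearest to Iqank1) and the ERK5 gene Mapk7 (25.01), and Mapk10 had neither. Of 7 MAP2 kinases, which activate the MAP kinases, 6 had both, led by Map2k7 (46.7), Map2k2 (43.1, nearest to Zbtb7a) and Map2k3 (42.7, nearest to Natd1), and Map2k6 had neither.

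The median of the highest ETV5 fold in the window was 27.0 over the 9 phosphatases and 13.7 over the atypical list. It was 18.4 over the MAP kinases, 36.7 over the MAP2 kinases and 16.9 over all protein-coding genes with ETV5. In several of these windows, as at Dusp8, the highest peak belonged to a neighbour, so these medians do not rank the lists by their own peaks. Within the H3K4me3 peak over the gene the median of the phosphatases was 18.2, and the medians of the other lists were not computed. Map2k2, Map2k3 and Map2k4 had only 16.0, 12.9 and 8.73 there. By this measure the ranges of the lists overlapped. They were 13.3 to 35.0 in the phosphatases and 8.01 to 34.3 in the atypical list. In the MAP kinases the range was 8.19 to 33.8 and in the MAP2 kinases 8.73 to 46.7. Median H3K4me3 width was 2686 bp in the phosphatases, 1249 in the atypical list, 1568 in the MAP kinases and 1620 in the MAP2 kinases. It was 6439 bp over the 10 AT2 markers, up to 12934 bp at Nkx2-1, and the AT1 marker Aqp5 had 5399 bp. An H3K4me3 peak with 2 or more ETV5 peaks lay over 7 of 9 phosphatases and 1 of 10 marked genes of the atypical list. Such a peak lay over 3 of 12 marked MAP kinases and 0 of 6 marked MAP2 kinases. The share was 19.5% of all H3K4me3-marked genes, with 6 of 10 AT2 markers and 2 of 4 marked AT1 markers. The lists differed in H3K4me3 width, and these counts were not compared at like width.

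**Figure D4:**
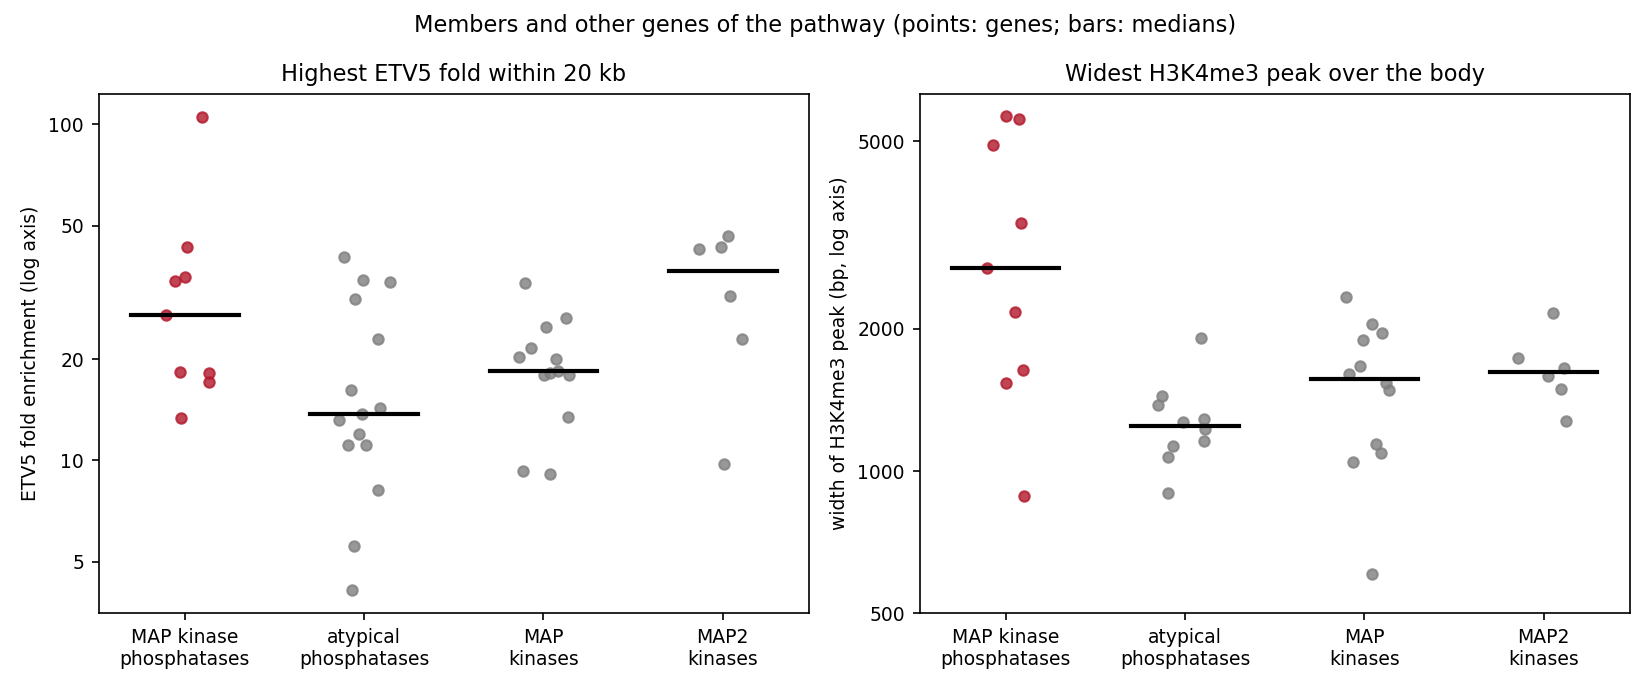
Left, highest ETV5 fold within 20 kb of each gene (log axis). Right, width in bp of the widest H3K4me3 peak over its body (log axis). Points are genes, black bars are medians, and genes without such a peak are not drawn. Dusp4, Dusp6, Dusp1, Dusp16 and Dusp7, from 2686 to 5638 bp, lie above the genes of the other 3 lists drawn, the widest of which is Mapk14 with 2333 bp.

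Just inside the 20-kb limit lay the Dusp7 peak of fold 4.09, 19035 bp from the gene, and the Dusp8 window's peak of fold 105 at Mob2, 17783 bp away. Just outside it lay a peak of fold 14.3, 22722 bp from Dusp16, and a peak of fold 4.51, 24738 bp from Dusp2. By nearest gene end, 38 of the 44 ETV5 peaks belonged to the phosphatase gene itself, and in 6 of 9 genes the highest-fold peak did, the exceptions being Dusp8, Dusp10 and Dusp16. Whether a peak inside a gene was exonic or intronic was not analysed here, because exon positions were not at hand.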

How the data were processed

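The ETV5 and the H3K4me3 immunoprecipitate were sequenced as 1 library each. Per the file headers and the submitters' processing notes, MACS2 2.1.0.20150420 called peaks in each library alone, at a q-value of 0.05. An aligner is not stated in these sources. Per the file headers, the pileup signal counts fragments at the summit and the input was the deeper library, so pileups are unscaled. The input for ETV5 carries another name than the input sample in the labels. The fold ratio, −log10 p-value and −log10 q-value are as the authors deposited them. Background was recovered from pileup and fold. It returned the deposited p within 1% at 100% of the 31017 ETV5 peaks for which the p could be computed.

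The submitters' processing notes name mm9. The coordinates were read as GRCm38, since 64.3% of H3K4me3 summits lay within 1 kb of a start in the RefSeq table of that build, and all 8 start sites of the phosphatases with an entry lay in H3K4me3. Genes came from that table. The 9 ETV5 and 5 H3K4me3 peaks off the assembled chromosomes were left out of comparisons.

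Overlap meant at least 1 bp. Named are all 9 genes and, of each pathway list, the 3 of highest fold and those without ETV5. The members and lists were chosen with earlier results of these data known. Python 3.11.15, numpy 2.4.6, pandas 2.3.3, scipy 1.17.1 and matplotlib 3.10.9 were used, and the overlap steps were tested on simulated data. Alternatives were other windows, thresholds, overlap rules and giving each peak to the nearest gene.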

Additional observations from a re-analysis of the deposited data

How the results depend on the processing

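All 9 genes kept an ETV5 peak with windows of 5 and 1 kb and at both stricter thresholds, and 8 did when each peak was given to the nearest gene only, where Dusp10 dropped out. The number of ETV5 peaks depended on the threshold. It fell from 44 to 20 at a −log10 q of at least 10 and to 16 at a fold of at least 10, and the share that overlapped H3K4me3 then changed from 52.3% to 85% and to 68.8%, with the same limit set on both lists. Under the other alternatives that share was 50 to 66.7%. With the fold limit set on the ETV5 list alone, 14 of the 16 peaks overlapped H3K4me3. In the whole list 8376 of the 9568 such ETV5 peaks did. The shares over all ETV5 peaks with both lists limited were not counted. At a fold of at least 10 the H3K4me3 peaks fell from 14 to 9, and Dusp2 no longer had one. The number of genes whose highest-fold ETV5 peak lay in H3K4me3 was 8, and 7 to 9 under the alternatives. With 1 library per antibody no replicate could be left out, and no paired analysis was possible because no antibody has a replicate. The depth of the ETV5 library limits weak peaks: the lowest pileups at these genes were 6 fragments, with an interval of 2.20 to 13.1.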
